A study of Mus musculus with 7 samples.

Results

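The heat shock proteins and chaperones described here are Hsph1, Hspa4, Hspa8, Dnaja1, Dnajb1, Hsp90aa1 and Hsp90ab1 of the cytosol, the mitochondrial chaperonin genes Hspd1 and Hspe1, and Hsf1, the transcription factor of the heat shock response. They were chosen by gene name, with earlier results of these data known. Every probe set that the platform annotation pairs with one of them alone was taken. That gave 19 of 22626 probe sets, for 8 of the 10 genes, out of 12393 genes named alone on the array. No probe set stood beside Hsp90ab1 or Hsf1 in the annotation used here, so both were not analysed here.

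The series measured haematopoietic stem cells sorted from mouse fetal liver at embryonic day 14.5 on 7 Affymetrix arrays, 1 per sample. The 3 TFIIAα-βnc/nc samples (written TFIIA nc/nc here) came from embryos whose 2 alleles both encode a TFIIA large subunit that the protease Taspase1 cannot cut, and pooled 2, 2 and 4 littermates. The 4 wild-type samples held 1, 1, 4 and 3 embryos. All embryos came from crosses of heterozygous parents. A double sort kept cells without lineage antigens that carried CD150, c-Kit and Sca-1, and their RNA was amplified from its 3′ end. The samples are called biological replicates, and no litter or day shared between the genotypes is named, so p-values measure the spread between these samples. The values are RMA intensities, in which background is corrected, arrays are brought to similar distributions and the probes of a set are summarised. Levels below are log2 of those intensities, and differences are TFIIA nc/nc minus wild type on that scale.

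Chaperones bind unfolded stretches of other proteins and keep them from clumping while they fold. HSP70 proteins such as HSC70, encoded by Hspa8, hold clients in cycles of ATP binding and hydrolysis. J-domain proteins bring clients and trigger hydrolysis, and HSP110 proteins and other exchange factors release the nucleotide. HSP90 takes over clients that are nearly folded, among them kinases and steroid receptors, while HSP60 and HSP10 form a closed chamber in mitochondria. When unfolded protein builds up, HSF1 is freed from chaperones and binds heat shock elements, inverted repeats of GAA and TTC units, in the promoters of these genes. Blood stem cells are known for keeping protein synthesis low and for being sensitive to protein misfolding.

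The promoters are shown because they carry the sequence through which several of these genes can be induced together. RefSeq windows of assembly GRCm38.p6, from 250 bases before to 50 bases after a transcript start, were given for 6 of the 10 genes, with 11 windows in all. Windows for Hspa8, Hsp90aa1, Hsp90ab1 and Hsf1 were not used. Windows were searched for GAANNTTC and TTCNNGAA, each its own reverse complement, and on both strands for GAANNTTC extended by NNGAA, a run of alternating units that contains both shorter motifs. The longer motif was present in the windows of Hsph1, Hspd1 and Hspe1, 3 of the 6 genes, against 0.662% of all 27025 genes with a window. By window, 4 of the 11 held it, against 0.603% of all 32851 windows. The 2 windows of Hsph1 overlap and hold the same site, so they are not separate finds. The shorter ones were present in 7.86% (GAANNTTC) and 8.52% (TTCNNGAA) of all windows. Hspd1 and Hspe1 lie head to head on chromosome 1 and share the same element. There 4 alternating units follow each other, each a pair of bases after the last, so that the longer motif fits in 2 overlapping positions. The stretches below run 5′ to 3′ on the strand of the gene named, with the element in capitals. The shared stretch is on the strand of Hspe1, and Hspd1 is read from the opposite, minus strand.
Hspe1 and Hspd1, chr1:55088019-55088116, plus strand, the shared promoter: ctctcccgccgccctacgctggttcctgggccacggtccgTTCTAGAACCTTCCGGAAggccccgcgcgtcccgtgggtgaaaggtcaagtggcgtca
Hsph1, chr5:149636352-149636379, minus strand, a short motif before the start: ggtagaatctTTCTCGAAggctcgagaa
Hsph1, chr5:149636280-149636308, minus strand, the longer motif just after the start: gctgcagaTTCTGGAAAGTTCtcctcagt
Dnaja1, chr4:40722334-40722361, plus strand, a short motif before the start: aaagcctctaGAAAATTCtacgaggctc
The shared element lay at −89 to −72 from the Hspe1 start. In Hsph1 the short motif lay at −54 to −47 and the longer one at 16 to 28 from the start nearer to it. In Dnaja1 the short motif lay at −124 to −117. The windows of Dnajb1 and Hspa4 held none of these letters, which says nothing of sites elsewhere. On the array, 57 measured genes had the longer motif in a window, and 31 of them (54.4%) were higher in TFIIA nc/nc with a median difference of 0.01, against 48.2% of 9882 measured genes with any window and a median of −0.01.

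Most chaperone probe sets gave somewhat higher values in TFIIA nc/nc stem cells, and none passed the test. Of the 19 probe sets, 16 were higher and 3 lower, with a median difference of 0.22. Over all 22626 probe sets 48.1% were higher and the median was −0.01. Several of the 19 probe sets read the same gene. By the brightest probe set of each gene, 7 of 8 were higher with a median of 0.21, against 48.1% of 12393 genes. Bright probe sets were higher more often: of 2065 probe sets with a mean level of at least 8, 57.4% were higher with a median of 0.03, against 13 of the 15 chaperone probe sets among them with a median of 0.21. With limma and Benjamini-Hochberg adjustment over all probe sets, 0 of the 19 had an adjusted p under 0.05, the smallest being 0.984, and 1 of all probe sets did (0.00442%). Before adjustment, 4 chaperone probe sets had a limma p under 0.05, all of them higher in TFIIA nc/nc, against 1.91% higher and 2.09% lower of all probe sets. An exact permutation test over the 35 assignments of arrays gave its smallest possible p, 0.0286, for 1 of the 19. In 4 of the 19 all TFIIA nc/nc arrays lay above all wild-type arrays, and in none below, where 2.85% of all probe sets lay wholly above and 2.81% wholly below. Among probe sets at a level of at least 8, 5.42% lay wholly above. Those 4 were probe sets of Hsph1, Hspa4, Hspd1 and Hspa8, and the sets of Hsph1, Hspa4 and Hspd1 differed by nearly the same amount. Because the genes were chosen with earlier results of these data known, the shares compared here describe these arrays and do not test the set.

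**Figure D1:**
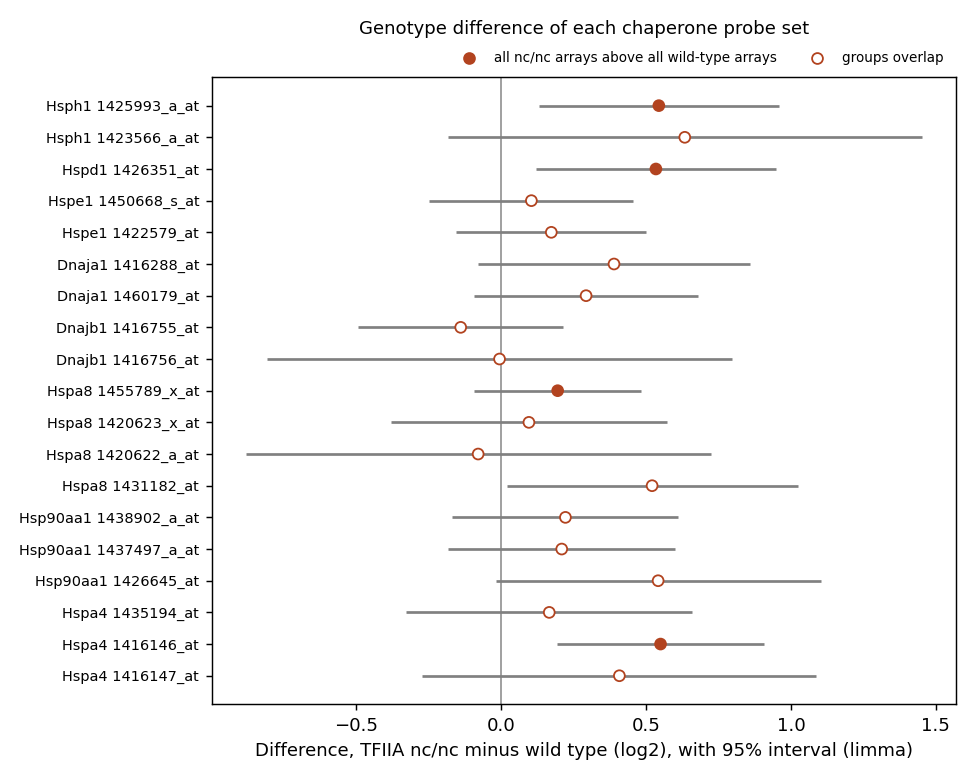
Difference in log2 level, TFIIA nc/nc (n = 3) minus wild type (n = 4), for the 19 chaperone probe sets, with 95% intervals from limma as bars. Filled points mark the 4 probe sets whose groups do not overlap; 16 points lie right of 0, and the intervals of 4 leave out 0 before any adjustment.

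HSP110 proteins release nucleotide from HSP70 so that the client can leave. Hsph1 encodes HSP105, a heat-induced member, and its brighter probe set (1425993_a_at) read 8.55, 8.86 and 8.58 in TFIIA nc/nc, against 8.15, 7.86, 7.99 and 8.49 in wild type. All TFIIA nc/nc arrays lay above all wild-type arrays, with wild-type replicate 4 close under the lowest of them. Group levels averaged 8.67 ± 0.17 (TFIIA nc/nc, SD, n = 3) and 8.12 ± 0.28 (wild type, SD, n = 4). The difference was 0.54 (SE 0.18, 95% interval 0.13 to 0.96), a ratio of 1.46 (limma, Benjamini-Hochberg adjusted p = 0.984). The dimmer probe set (1423566_a_at) read 5.77, 6.91 and 6.14 in TFIIA nc/nc, against 4.90, 5.51, 5.73 and 6.41 in wild type. It differed by 0.63 (SE 0.36), with overlapping groups and wild-type replicate 4 again the highest of its group. Leaving out TFIIA nc/nc replicate 2 brought the difference to 0.32, and leaving out wild-type replicate 1 brought it to 0.39.

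Hspa4 encodes APG-2, the constitutive HSP110 of most cells. Probe set 1416146_at read 8.87, 8.88 and 8.96 in TFIIA nc/nc, against 8.36, 8.27, 8.14 and 8.65 in wild type. The TFIIA nc/nc arrays lay within 0.09 of each other and above every wild-type array. The difference was 0.55 (SE 0.16, 95% interval 0.19 to 0.91), with means of 8.90 ± 0.05 (TFIIA nc/nc, SD, n = 3) and 8.35 ± 0.22 (wild type, SD, n = 4). Ordered by limma p over all 22626 probe sets it stood at rank 110, the first of the chaperone probe sets, with an adjusted p of 0.984. The other Hspa4 probe sets were less separated. Probe set 1435194_at read 8.65, 8.88 and 9.21 in TFIIA nc/nc and 8.51, 8.95, 8.41 and 9.12 in wild type, a difference of 0.17 (SE 0.22). Leaving out 1 array at a time moved it by over 1.5 times for 5 of the 7 arrays, to 0.30 and 0.0175 for TFIIA nc/nc replicates 1 and 3 and to 0.0886, 0.0539 and 0.29 for wild-type replicates 1, 3 and 4. Probe set 1416147_at read 6.205, 6.67 and 6.67 in TFIIA nc/nc and 5.57, 6.77, 5.65 and 6.43 in wild type, a difference of 0.41 (SE 0.30), which was 0.23, 0.63 and 0.26 without wild-type replicates 1, 2 and 3. In both, wild-type replicates 1 and 3 lay below all TFIIA nc/nc arrays. Replicates 2 and 4 lay among the TFIIA nc/nc values, except that replicate 2 lay above them all on 1416147_at.

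HSC70, the abundant constitutive HSP70, is encoded by Hspa8, and its 4 probe sets did not move together. Processed pseudogenes of Hspa8 exist in the mouse genome, and the suffix x marks probe sets in which some probes can also bind similar transcripts, so these signals are uncertain as measures of Hspa8 alone. The brightest (1455789_x_at) read 12.54, 12.60 and 12.49 in TFIIA nc/nc, against 12.32, 12.35, 12.38 and 12.34 in wild type. The groups did not overlap and each was tight, and the difference was small, 0.20 (SE 0.13, limma adjusted p = 0.984, exact permutation p = 0.0286). Signals this high are near the top of the arrays, whose maxima were 13.5 to 13.8, where differences can be compressed. Probe set 1420623_x_at read 11.12, 11.69 and 11.44 in TFIIA nc/nc and 10.95, 11.18, 11.53 and 11.62 in wild type, with overlapping groups and a difference of 0.10 (SE 0.21), which crossed 0 when TFIIA nc/nc replicate 2 (−0.0426) or wild-type replicate 1 (−0.0257) was left out and reached 0.24 when TFIIA nc/nc replicate 1 was.

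Probe set 1420622_a_at of Hspa8 separated the wild-type samples from each other. It read 10.77, 10.85 and 10.66 in TFIIA nc/nc, against 10.18, 10.19, 11.65 and 11.32 in wild type. Wild-type replicates 1 and 2, each from 1 embryo, lay below all TFIIA nc/nc arrays, and replicates 3 and 4, from 4 and 3 embryos, lay above them. The wild-type range was 1.47, against 0.19 in TFIIA nc/nc, and the difference between genotypes was −0.08 (SE 0.36). The 3′ minus 5′ signal of actin, which is larger where copies reach less far from the 3′ end, also varied between samples. In TFIIA nc/nc it stood at 2.95, 2.15 and 2.99, while 1420622_a_at was alike in those arrays. In wild type it stood at 2.92, 2.62, 1.94 and 2.12, so the 2 arrays with the high 1420622_a_at values had the smallest actin values. They were also the samples of more than 1 embryo, so actin signal and embryo number cannot be told apart in wild type. The cause of the split was not tested. With the actin signal as a covariate the difference of 1420622_a_at was 0.22 (limma adjusted p = 0.988), and among samples of 2 or more embryos, which leaves out wild-type replicates 1 and 2, it was −0.73 (limma adjusted p = 0.222). The dim probe set 1431182_at read 5.67, 5.87 and 6.43 in TFIIA nc/nc and 5.70, 5.07, 5.50 and 5.61 in wild type, a difference of 0.52 (SE 0.22, limma Benjamini-Hochberg adjusted p = 0.984) that was 0.30 without TFIIA nc/nc replicate 3.

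**Figure D2:**
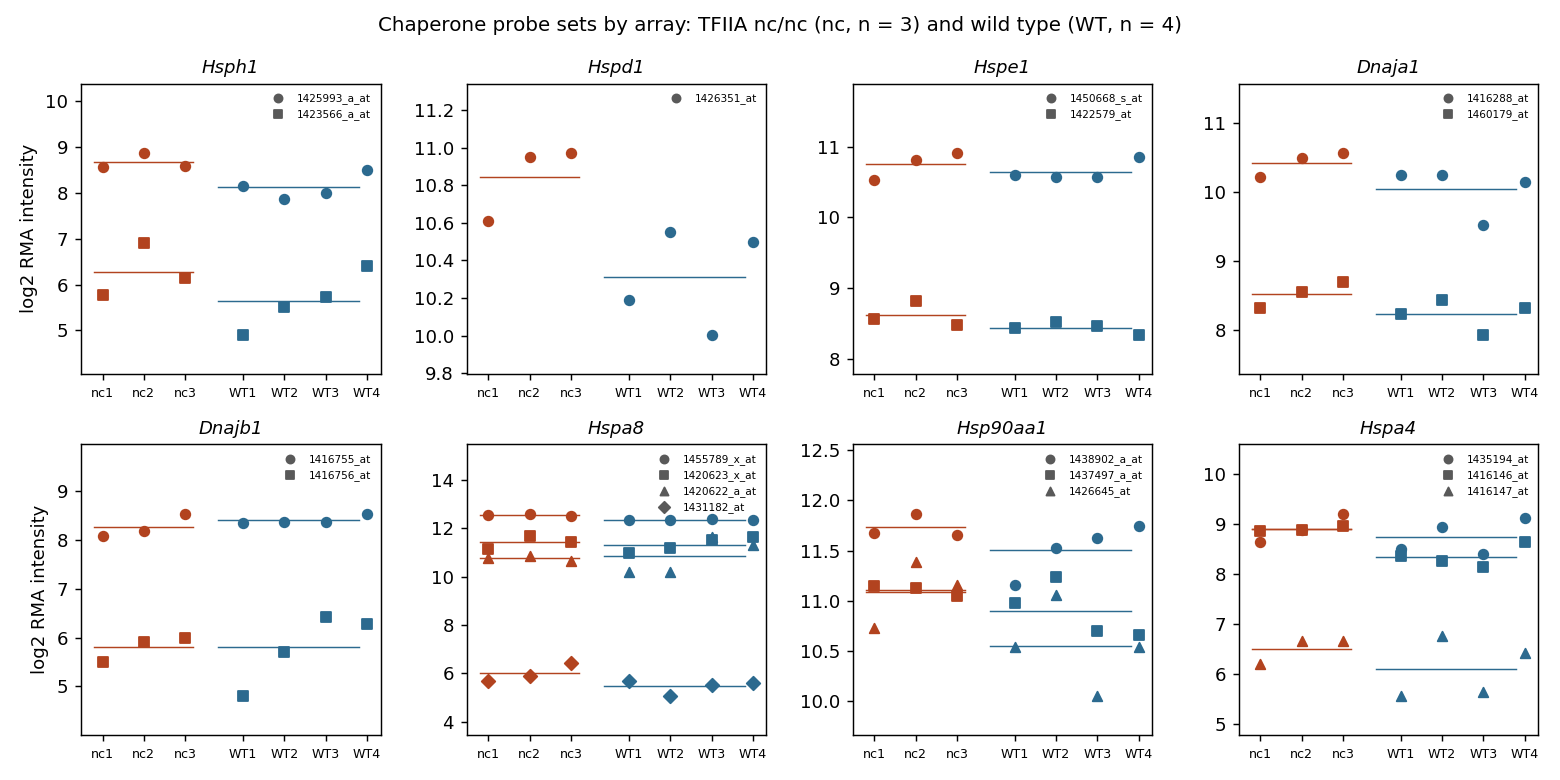
Log2 RMA intensity of every chaperone probe set (one marker shape each) in each of the 3 TFIIA nc/nc arrays (nc, orange) and 4 wild-type arrays (WT, blue), with a line at each group mean. Each panel has its own axis; the Hspa8 panel shows 1420622_a_at low in WT1 and WT2 and high in WT3 and WT4.

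The J-domain partners of HSP70 split by gene. Dnaja1, a J-domain protein of the cytosol that is anchored in part through a farnesyl group, lay above every wild-type array in 2 of the 3 TFIIA nc/nc arrays on both of its probe sets. Probe set 1416288_at read 10.22, 10.50 and 10.57 in TFIIA nc/nc, against 10.25, 10.24, 9.52 and 10.15 in wild type. TFIIA nc/nc replicate 1 lay within the wild-type values, and wild-type replicate 3 lay far below the others. The difference of 0.39 (SE 0.21) was 0.22 without wild-type replicate 3. Probe set 1460179_at read 8.32, 8.55 and 8.69 in TFIIA nc/nc and 8.24, 8.43, 7.93 and 8.32 in wild type, with replicate 3 again lowest and a difference of 0.29 (SE 0.17), which was 0.19 without it.

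Dnajb1 encodes the heat-induced HSP40 and was not higher. Probe set 1416755_at read 8.08, 8.19 and 8.54 in TFIIA nc/nc, against 8.36, 8.37, 8.37 and 8.54 in wild type, a difference of −0.14 (SE 0.16, 95% interval −0.49 to 0.21). TFIIA nc/nc replicates 1 and 2 lay below every wild-type array, and replicate 3 stood level with the highest of them; without replicate 1 the difference was −0.0451, and without replicate 3 it was −0.28. Probe set 1416756_at read 5.49, 5.91 and 5.9997 in TFIIA nc/nc and 4.81, 5.71, 6.41 and 6.29 in wild type. Its difference was −0.01 (SE 0.36, 95% interval −0.81 to 0.80), so changes of either sign up to about that size could not be detected on this probe set. It was −0.34 without wild-type replicate 1 and 0.20 without wild-type replicate 3.

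Hsp90aa1, the inducible HSP90, had 3 probe sets that were each higher on average and overlapped between genotypes. Probe set 1426645_at read 10.72, 11.38 and 11.16 in TFIIA nc/nc, against 10.54, 11.06, 10.05 and 10.54 in wild type. TFIIA nc/nc replicates 2 and 3 lay above all wild-type arrays, and replicate 1 lay below wild-type replicate 2. The difference was 0.54 (SE 0.25, 95% interval −0.02 to 1.10), and 0.38 without wild-type replicate 3. Probe set 1438902_a_at read 11.67, 11.87 and 11.65 in TFIIA nc/nc and 11.15, 11.52, 11.62 and 11.74 in wild type, a difference of 0.22 (SE 0.17) that was 0.10 without wild-type replicate 1. Probe set 1437497_a_at read 11.14, 11.12 and 11.04 in TFIIA nc/nc and 10.98, 11.24, 10.70 and 10.66 in wild type, a difference of 0.21 (SE 0.17) that was 0.32 and 0.13 without wild-type replicates 2 and 4. The probe sets ordered the wild-type arrays differently: replicate 3 was lowest on the first and replicate 1 on the second.

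HSP60, the subunit of the mitochondrial folding chamber, is encoded by Hspd1. Its only probe set (1426351_at) read 10.61, 10.95 and 10.97 in TFIIA nc/nc, against 10.19, 10.55, 10.004 and 10.50 in wild type. The groups did not overlap, with TFIIA nc/nc replicate 1 close above wild-type replicate 2. Group levels averaged 10.84 ± 0.20 (TFIIA nc/nc, SD, n = 3) and 10.31 ± 0.26 (wild type, SD, n = 4), a difference of 0.53 (SE 0.18, 95% interval 0.12 to 0.95; limma adjusted p = 0.984).

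Hspe1 encodes HSP10, the lid of that chamber, and is read from the other side of the promoter shown above. Its probe sets differed by less than the Hspd1 probe set. Probe set 1422579_at read 8.56, 8.82 and 8.47 in TFIIA nc/nc and 8.44, 8.52, 8.47 and 8.33 in wild type, a difference of 0.17 (SE 0.15, 95% interval −0.15 to 0.50) that was 0.0723 without TFIIA nc/nc replicate 2. Probe set 1450668_s_at read 10.54, 10.82 and 10.92 in TFIIA nc/nc and 10.60, 10.58, 10.57 and 10.86 in wild type, a difference of 0.10 (SE 0.16). Leaving out TFIIA nc/nc replicates 1 or 3 moved it to 0.22 or 0.0247, and leaving out wild-type replicate 4 moved it to 0.17. Whether Hspd1 and Hspe1 differed from each other in their response was not tested, and their intervals overlap. The suffix s marks probes shared between transcripts of more than one gene, and Hspe1 also has processed pseudogenes.

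Samples of one genotype differed from each other over the whole set. TFIIA nc/nc replicate 3 was the highest of the 7 arrays on 8 of the 19 probe sets and replicate 2 on 7. TFIIA nc/nc replicate 1 was highest on 0 and lowest on 2, with a median deviation of −0.03 from the mean of the 7 arrays. In wild type, replicate 1 was lowest on 7 and replicate 3 on 6, with median deviations of −0.23 and −0.19. Wild-type replicate 4 deviated by 0.14, above TFIIA nc/nc replicate 1.

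**Figure D3:**
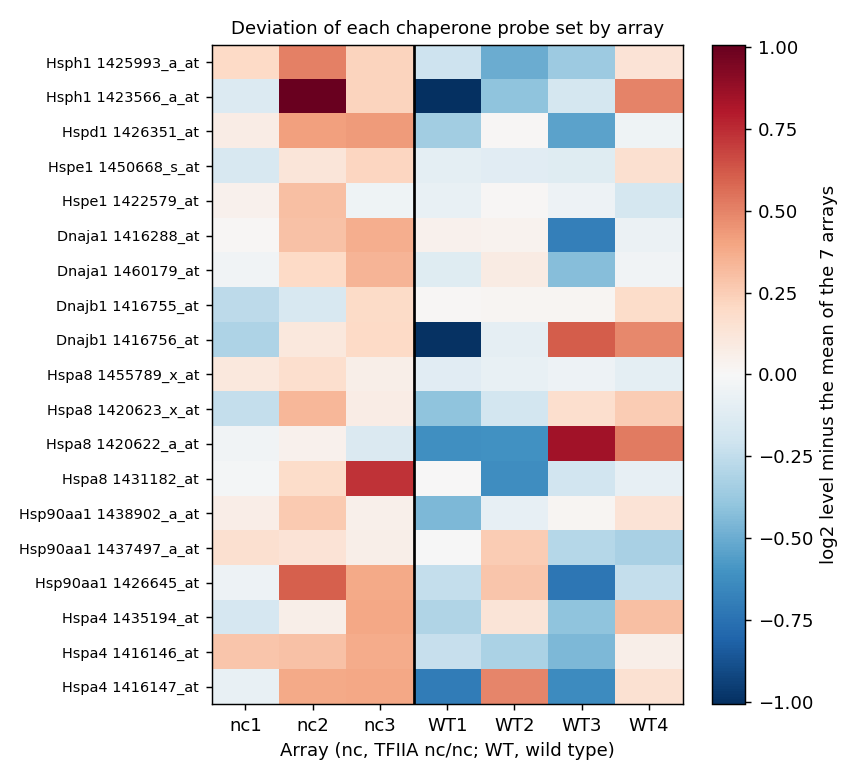
Log2 level minus the mean of the 7 arrays for each chaperone probe set (rows) in the 3 TFIIA nc/nc arrays (left of the line) and 4 wild-type arrays. nc2 and nc3 are mostly red, WT1 and WT3 mostly blue, and nc1 and WT2 of both colours; 1420622_a_at and 1416756_at are red in WT3 and WT4.

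Transcripts of other cells varied between the sorts. The mean level of 12 endothelial genes, such as Lyve1 and Cdh5, stood high in 3 arrays: it was 6.67 in the first and 7.22 in the second TFIIA nc/nc replicate, and 6.85 in the first wild-type one. It was 4.15 in TFIIA nc/nc replicate 3 and 4.09 to 4.30 in the remaining wild-type arrays. The mean of 7 liver parenchyma genes was 3.98 to 5.72 in TFIIA nc/nc and 3.57 to 4.76 in wild type, and that of 8 macrophage genes 3.83 to 5.27 in TFIIA nc/nc and 3.24 to 4.41 in wild type. The macrophage mean was highest in TFIIA nc/nc replicates 3 and 2 (5.27 and 4.82) and lowest in wild-type replicate 3 (3.24). Hspd1 and the brighter Dnaja1 probe set were highest and lowest in the same arrays. Other chaperone probe sets ordered the arrays differently, such as Hsph1 1425993_a_at, lowest in wild-type replicate 2. Nor did every macrophage gene follow the mean: Cd68 read 2.30, 3.57 and 4.64 in TFIIA nc/nc, and 3.58, 4.34, 4.07 and 4.14 in wild type. In TFIIA nc/nc replicate 1 the macrophage mean was 3.83, below wild-type replicates 1 and 2 (4.26 and 4.41). That array lay below both on the Dnaja1 probe set too, but above every wild-type array on Hspd1. The part of macrophage transcripts in these values was not tested. Genes of the sorted stem cell (Kit, Slamf1, Mecom, Hlf and Procr) averaged 5.95 to 6.37 in TFIIA nc/nc and 6.22 to 6.57 in wild type (difference −0.34, exact permutation p = 0.0857), with Mecom dim at 2.08 to 3.15 in all arrays. Markers of lineage-positive cells averaged 2.57 to 2.94 in TFIIA nc/nc and 2.72 to 3.10 in wild type, below the array medians of 3.70 to 3.83. In such mixtures a change in the share of cells and a change of RNA per cell cannot be told apart. With those 3 arrays left out, TFIIA nc/nc is the single array of replicate 3, the highest of the 7 on 8 probe sets, so the values describe that array and test nothing. It lay above the mean of the 3 remaining wild-type arrays on 16 of the 19 probe sets, with differences between −0.39 for Hspa8 1420622_a_at and 1.03 for Hspa8 1431182_at. They were 0.62 for Hspd1, 0.61 for Hspa4 1416146_at, 0.47 for Hsph1 1425993_a_at and 0.25 for Hsph1 1423566_a_at.

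Set against other bright probe sets, the larger chaperone differences lay in the upper tail. Of the 2065 probe sets at a level of at least 8, a total of 15 (0.726%) were higher by 0.5 or more, and 4 of those 15 were the probe sets of Hsph1, Hspd1, Hsp90aa1 and Hspa4 named above. The line of 0.5 was drawn after their values were seen, so the count describes these arrays and tests nothing.

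**Figure D4:**
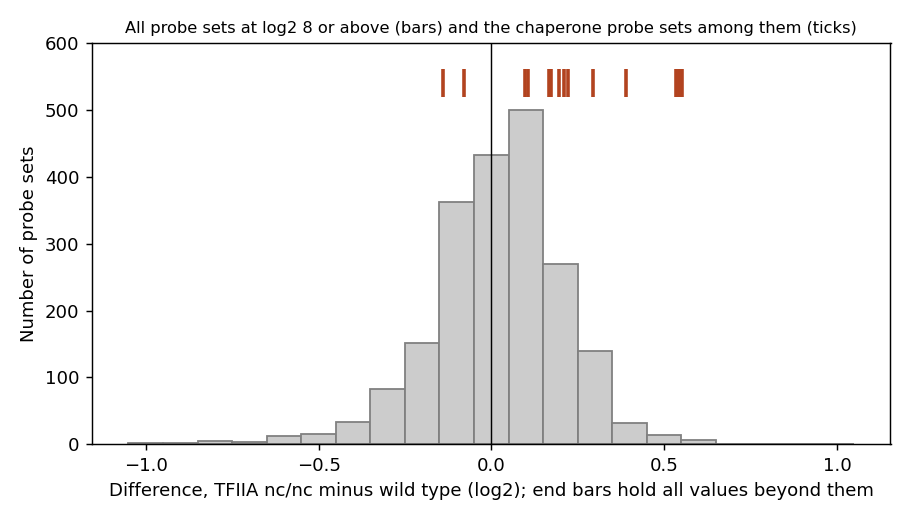
Number of probe sets by difference, TFIIA nc/nc minus wild type (log2), for the 2065 probe sets with a mean level of at least 8 (bars), with the 15 chaperone probe sets among them as ticks above. The ticks lie between −0.14 and 0.55, and 13 of them right of 0.

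The remaining chaperone network was described with 9 lists, of which 72 of 81 genes were measured, each by its brightest probe set. Of the 72, 0 had a limma p under 0.05 after adjustment (the smallest was 0.984), and 8 did before it, all higher in TFIIA nc/nc, against 2.02% higher and 2.41% lower of 12393 genes read by their brightest probe set. Without the genes described above, 45 of 70 were higher with a median of 0.13, and 8 of the 70 lay wholly above wild type, against 3.23% of those 12393 genes. Of those 12393 genes, 48.1% were higher, with a median of −0.01. The lists, too, were chosen with earlier results of these data known.

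TRiC is the chaperonin of the cytosol that folds actin and tubulin. All 8 subunits had a higher mean in TFIIA nc/nc, by 0.04 to 0.25 with a median of 0.12, and 0 passed. Of the 8, 1 lay wholly above wild type, and wild-type replicate 4 was the highest of the 7 arrays on 5. Of all probe sets at a level of at least 8, as these subunits were, 57.4% were higher and 5.42% lay wholly above. The median was 0.0808 without wild-type replicate 1 and 0.19 without wild-type replicate 4. Cct3 read 10.54, 10.61 and 10.41 in TFIIA nc/nc and 10.36, 10.11, 10.20 and 10.40 in wild type, a difference of 0.25 (SE 0.14), and Cct8 differed by 0.22 (SE 0.17) with overlapping groups. Of 5 prefoldin subunits, which hand clients to TRiC, 3 were higher. Pfdn2 read 6.01, 6.36 and 6.45 in TFIIA nc/nc and 5.24, 5.67, 5.81 and 5.85 in wild type, a difference of 0.63 (SE 0.19, limma Benjamini-Hochberg adjusted p = 0.984). Pfdn6 differed by 0.39 (SE 0.17), also without overlap of the groups.

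Partners of HSP70 were mostly higher and 0 passed, where 48.1% of the 12393 genes read by their brightest probe set were higher. Of 9 HSP70 and HSP110 relatives 7 were higher, with a median of 0.18. The 7 included the dim Hspa1l, at 0.00554, and the dim Hspa1b, at 0.18, while the dim Hspa1a was lower. The 2 of smallest p were Hspa14, of the ribosome, at 0.35 (SE 0.14), and Hspa12b at −0.42 (SE 0.22), with overlapping groups. Of 14 further J-domain genes 10 were higher, with a median of 0.19, and those of smallest p were the mitochondrial Dnaja3 at 0.49 (SE 0.16) and Dnajc7 at 0.66 (SE 0.26). Dnaja3 read 6.49, 6.43 and 6.37 in TFIIA nc/nc and 5.96, 6.23, 5.74 and 5.85 in wild type, without overlap. Of 10 exchange factors and HSP70 partners 8 were higher, with a median of 0.16; this list holds Hsph1 and Hspa4. Its exceptions included Hspbp1, an exchange factor of HSP70, at −0.65 (SE 0.30). Hspbp1 read 5.41, 5.87 and 5.38 in TFIIA nc/nc and 5.48, 5.98, 6.65 and 6.70 in wild type, high in the same wild-type replicates 3 and 4 as Hspa8 1420622_a_at.

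The HSP90, mitochondrial and small heat shock lists held both higher and lower members. Both measured heat shock factors had a lower mean in TFIIA nc/nc, with differences of −0.0221 for Hsf2 and −0.0663 for Hsf4, and neither passed. Of 10 HSP90 co-chaperones 4 were higher and 6 lower, with a median of −0.05. Ahsa1, which stimulates the ATPase of HSP90, read 8.85, 8.92 and 8.76 in TFIIA nc/nc and 8.47, 8.55, 8.48 and 8.61 in wild type, without overlap, a difference of 0.31 (SE 0.13). Fkbp5, which binds HSP90 with steroid receptors, differed by 0.37 (SE 0.21) with overlapping groups. Of 10 mitochondrial chaperones and proteases 6 were higher, with a median of 0.10. Grpel1, the exchange factor of mitochondrial HSP70, read 8.35, 8.27 and 8.06 in TFIIA nc/nc and 7.99, 7.87, 7.65 and 7.83 in wild type, without overlap, a difference of 0.39 (SE 0.15). The protease Htra2 differed by 0.28 (SE 0.16) with overlapping groups. Of 5 small heat shock and collagen chaperone genes 2 were higher, with a median of −0.01. Serpinh1, the collagen chaperone of matrix-producing cells, read 7.87, 7.85 and 4.52 in TFIIA nc/nc and 7.96, 5.03, 4.79 and 4.31 in wild type, high in the 3 arrays with high endothelial transcripts.

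**Figure D5:**
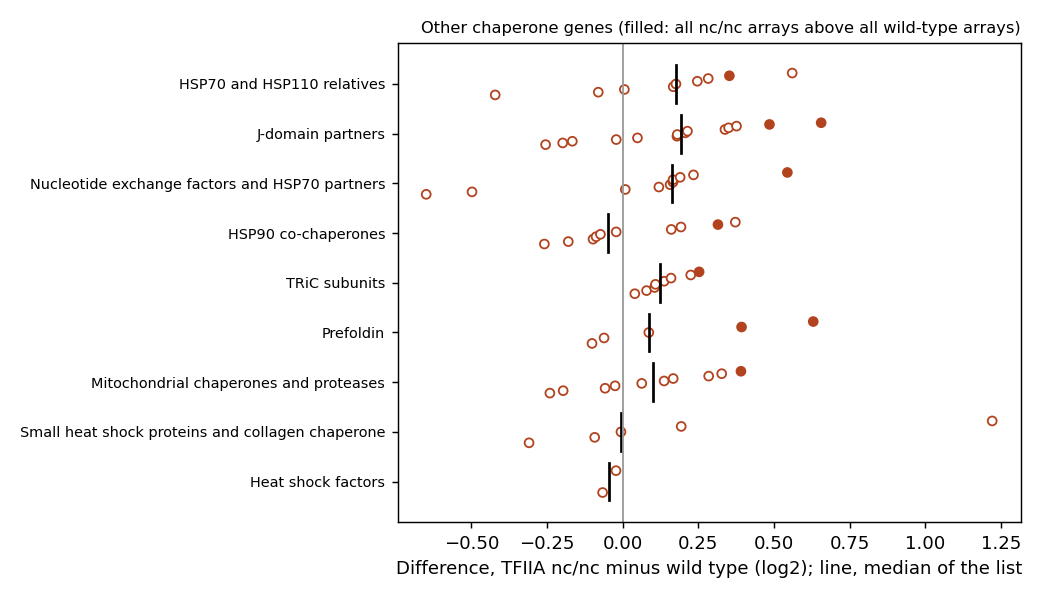
Difference, TFIIA nc/nc minus wild type (log2), of each measured gene (points) in 9 chaperone lists, with the median of each list as a vertical line. Filled points mark genes whose 3 TFIIA nc/nc arrays lie above all 4 wild-type arrays; the TRiC list lies wholly right of 0, between 0.04 and 0.25.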

How the data were processed

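RNA of sorted fetal liver stem cells was measured on 1 Affymetrix array per sample. The authors deposited an RMA intensity for each probe set. Per the submitters' processing notes, it was made with Affymetrix Expression Console, with versions not given in the sources used here. They lay on a linear scale, and log2 was taken with no pseudocount. Of 22690 probe sets, 64 controls were left out. A platform annotation, with symbols updated through Entrez identifiers (12369 of 12393 matched RefSeq GRCm38.p6), named 1 gene for 20380 probe sets, several for 691 and none for 1555. No scan date or detection call entered, so array batches could not be examined, and the number of arrays limits the precision. RMA tends to understate differences of dim probe sets.

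The genotype contrast was fitted with limma 3.58.1 (lmFit, eBayes; R 4.3.3), 2-sided, without covariates, on all 7 arrays and 22626 probe sets, with Benjamini-Hochberg adjustment and a threshold of 0.05. Sample quality measures got an exact permutation test, also 2-sided. The fit was tested on simulated data. At the same threshold it recovered 58.3% of the changed probe sets at a log2 change of 1, and 98.5% at 2. Smaller changes, such as the chaperone differences, were not simulated. The members, lists and settings were chosen with earlier results of these data known. All member probe sets were named, and from each other list those past the threshold or the 2 genes of smallest p. Replicate numbers were checked as pairs: deviations of same-numbered samples from their group means correlated at 0.44, −0.23 and 0.10, so they were not treated as pairs. Figures used Python 3.11.15 and matplotlib 3.10.9.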

Additional observations from a re-analysis of the deposited data

Results flagged for a closer look

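Within the 4 wild-type arrays, a gap between one sample and the rest beyond Dixon's 95% critical value was seen on 3 of the 19 chaperone probe sets, where chance gives about 1 in 20. Wild-type replicate 3 was low on Dnaja1 1416288_at, at 9.52. Wild-type replicate 4 was high on Hspe1 1450668_s_at, at 10.86, and on Dnajb1 1416755_at, at 8.54. On Dnajb1 the other wild-type arrays lay so close together, at 8.36 to 8.37, that a small gap was enough. The 3 TFIIA nc/nc arrays were not tested in this way.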

How the results depend on the processing

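Under all 23 alternative settings 0 chaperone probe sets and 0 genes of the 9 lists passed. The number of all probe sets passed was 0 with the filter of log2 6 on at least 3 arrays, without moderation and with the 4 arrays of low endothelial transcripts, 14 with samples of 2 or more embryos, and 1 to 2 when leaving out each array (2 without wild-type replicate 3). The replicate block gave 0 chaperone calls and 1 call in all, with a median chaperone difference of 0.30. That median was 0.20 to 0.32 over all settings, and 15 to 18 of the 19 were higher when leaving out each array. The direction held for 15 of the 19 probe sets in every setting that kept them. The others crossed 0, and the cause was not tested. Filters by level, 1 probe set per gene, other priors for the spread, no moderation and the threshold of 0.1 could not change a direction. They reuse the same differences, and the replicate block gives the differences found without wild-type replicate 4. Hspa8 1420622_a_at was 0.0851 with array weights, 0.0608 with the endothelial covariate, 0.221 with the actin covariate and 0.0835 with the replicate block. It stayed below 0 with the embryo number as covariate (−0.22), with the 4 arrays of low endothelial transcripts (−0.39) and, by the widest move, with samples of 2 or more embryos (−0.73), and ranged from −0.30 to 0.19 when leaving out each array. Dnajb1 1416756_at was 0.0645, 0.322, 0.285 and 0.156 under the same first 4 settings and −0.55 with samples of 2 or more embryos, and ranged from −0.34 to 0.20 when leaving out each array. Hspa8 1420623_x_at was −0.16 with samples of 2 or more embryos and −0.00691 with the 4 arrays of low endothelial transcripts, and ranged from −0.0426 to 0.245 when leaving out each array. Dnajb1 1416755_at was 0.12 with those 4 arrays. With 3 and 4 arrays, the 95% intervals of the chaperone probe sets reached from 0.29 to 0.82 on either side of the difference.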

Other observations

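Several heat-induced genes of the network, and the heat shock factors Hsf2 and Hsf4, gave dim signals in all 7 arrays. They are named here after their values were seen. Hspa1a and Hspa1b, the stress-induced HSP70 genes, read 1.73 to 2.25 and 2.43 to 2.80 in TFIIA nc/nc, and 1.62 to 2.55 and 2.27 to 2.49 in wild type. Bag3, an HSP70 partner in stressed cells, read 2.99 to 3.20 in TFIIA nc/nc and 2.64 to 3.01 in wild type. Hspb1 read 2.91 to 3.11 in TFIIA nc/nc and 2.75 to 3.73 in wild type (difference −0.31, SE 0.22). The heat shock factors Hsf2 and Hsf4 read 2.09 to 2.56 and 1.88 to 2.18 in TFIIA nc/nc, and 1.80 to 2.66 and 1.88 to 2.21 in wild type. Each of these readings lay below the median of its own array (3.70 to 3.83), and a dim probe set can also be one that binds its transcript poorly. Other heat-induced genes described above were bright. Dnajb1 1416755_at averaged 8.27 in TFIIA nc/nc and 8.41 in wild type, and Hsph1 1425993_a_at averaged 8.67 and 8.12.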
